A study of Mus musculus with 16 samples.

Results

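The proteasome genes described here were all probe sets whose single gene symbol in the platform annotation starts with Psma, Psmb, Psmc, Psmd, Psme, Psmf or Psmg. A probe set is a group of short probes on an Affymetrix array that together measure a transcript. This rule found 56 probe sets of 39 genes among the 7053 probe sets with a single symbol, which stand for 4929 genes. Core subunits had 19 of these probe sets for 14 genes, and subunits of the regulatory cap had 25 for 17 genes. Activators had 6, chaperones that assemble the core had 4, and the cap chaperone Psmd10 had 1. The prefix also took in Psme3ip1, which encodes a partner of the activator PSME3 and is no proteasome subunit. The immune core subunits Psmb8 to Psmb11, the inhibitor Psmf1 and the activator Psme2 were not analysed here. The 39 genes lie on 16 chromosomes, and the largest number on any of them is 8, on chromosome 11.

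The tested mice carried human SOD1 (superoxide dismutase 1) with the G93A substitution, an animal model of amyotrophic lateral sclerosis, and their controls were non-transgenic (NTg). All were female C57BL/6 mice aged 7 weeks, before symptoms, and the promoter that drives the transgene is not given in the sources used here. From 4 SOD1-G93A and 4 NTg mice, a calf muscle (gastrocnemius) and a forelimb muscle (triceps) were profiled, so the 16 arrays form 4 groups of 4. The table holds 1 log2 signal per probe set and array, and array medians lay between 7.10 and 7.26. Probe sets were tested with limma where their mean exceeded log2 6.75, which 4637 probe sets did, and called where the p adjusted over all of them (Benjamini-Hochberg) was under 0.05. Of the 56 proteasome probe sets 51, for 36 genes, were tested. The 5 below the limit were both of Psme3, the only ones of Psmg4 and Psmd10, and 1435317_x_at of Psma6. All 15 listed skeletal muscle markers were in the table, and their mean per array lay between 12.43 and 13.98. In whole muscle, fewer cells of a type and less RNA per cell cannot be told apart.

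The proteasome degrades proteins that carry ubiquitin chains. Its core is a barrel of alpha rings, which gate the entrance, and beta rings, some of whose subunits cut the protein chain. The regulatory cap binds the ubiquitin chain, removes it and feeds the protein into the core with a ring of ATPases, whereas activators open the core without that machinery. In muscle the system is known for the removal of contractile proteins during atrophy. When proteasomes fail, the transcription factor NRF1 (Nfe2l1) is known to raise proteasome genes together, through antioxidant response elements in their promoters.

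The promoters of 32 of the 39 genes were matched in RefSeq (GRCm38.p6) and searched over the 250 bases before the gene start, on both strands, for 3 motifs. The antioxidant response element core TGACNNNGC was present in 4 of 32 genes (12.5%), those of Psmb5, Psmb6, Psmc6 and Psmd12, and in 14.5% of the 2514 tested array genes that have a promoter entry. The ETS core CCGGAAG, the letters that ETS family factors are known to bind, was present in 12 of 32 (37.5%), against 17.8% of the tested array genes. The CCAAT box was present in 13 of 32 (40.6%), against 41.4% of the tested array genes. The median GC content was 58.4% in the proteasome promoters and 60.4% in those of the tested array genes. Since the letters CCAAT and CCGGAAG do not contain each other, a gene could count for both. The 32 genes include some that were not tested, whereas the array genes beside them were all tested. Psme3, not tested, counts for the ETS core and the CCAAT box, and Psmd10, not tested, for the CCAAT box. No test was made of these shares.

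Promoters are printed for Psmd6, Psme4 and Psmc6. Psmd6 (chr14:14120946-14121195, minus strand) is a cap subunit with a probe set that was called between the muscles, while its other probe set had the opposite sign. Psme4 (chr11:30771525-30771774, plus strand) is the activator with 3 tested probe sets. Psmc6 (chr14:45329574-45329823, plus strand) is a cap ATPase that holds both an antioxidant element core and an ETS core. Each run gives the 250 bases before the start that the RefSeq promoter table of GRCm38.p6 uses, 5′ to 3′ on the strand of the gene. Capitals mark the motif matches. In Psmd6 the ETS core lies 45 to 39 bases before the start, in Psme4 53 to 47 bases, and in Psmc6 100 to 94 bases. The antioxidant element core of Psmc6 lies 227 to 219 bases before the start, on the other strand.
Psmd6: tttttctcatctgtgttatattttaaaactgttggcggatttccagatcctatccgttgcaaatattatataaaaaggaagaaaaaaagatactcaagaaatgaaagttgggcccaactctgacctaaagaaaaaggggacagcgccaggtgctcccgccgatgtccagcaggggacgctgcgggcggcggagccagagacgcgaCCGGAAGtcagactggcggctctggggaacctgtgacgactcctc
Psme4: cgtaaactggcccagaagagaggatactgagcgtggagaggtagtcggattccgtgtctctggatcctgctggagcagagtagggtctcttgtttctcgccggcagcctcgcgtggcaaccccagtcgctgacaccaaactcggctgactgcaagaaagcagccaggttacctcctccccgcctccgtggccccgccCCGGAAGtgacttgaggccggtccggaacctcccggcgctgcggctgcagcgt
Psmc6: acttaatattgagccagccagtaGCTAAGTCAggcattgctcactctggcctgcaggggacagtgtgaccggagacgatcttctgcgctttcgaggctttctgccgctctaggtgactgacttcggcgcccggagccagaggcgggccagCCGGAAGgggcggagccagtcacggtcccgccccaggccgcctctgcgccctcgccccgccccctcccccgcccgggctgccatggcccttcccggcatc

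Before the comparisons, 3 triceps arrays have to be named, because several proteasome probe sets followed them. In SOD1-G93A triceps replicate 2 and in NTg triceps replicates 1 and 2, the signal of Ckm, the creatine kinase of muscle, was 12.76, 12.84 and 13.02, against 13.84 to 14.51 in the other 5 triceps arrays. These arrays were picked out after their values were seen, and many results that rest on them are given with and without them. Because the spread is estimated over all groups together, they also enter the SE, p and intervals of gastrocnemius, which are mostly given with them only. Leaving them out keeps only replicates 3 and 4 of NTg triceps and replicates 1, 3 and 4 of SOD1-G93A triceps. Values without them thus rest on few triceps arrays, and are given beside, not in place of, those with all arrays. Psmb4, a core beta subunit, showed the pattern. Its probe set 1438984_x_at was at 9.85 in SOD1-G93A triceps replicate 2 and at 9.79 and 10.10 in NTg triceps replicates 1 and 2, against 8.05 to 9.19 in the other 13 arrays. The other Psmb4 probe set, 1451205_at, lay between 9.59 and 10.05 on all 16 arrays. Psmc4, an ATPase of the cap, had 8.45, 8.33 and 9.03 on those arrays with 1416290_a_at, against 7.13 to 7.88 elsewhere, while its 1416291_at stayed between 8.11 and 8.72. Psmc6, also an ATPase, had 8.03, 8.12 and 8.03 with 1417770_s_at, against 6.35 to 7.21 elsewhere, and 8.84 to 9.56 on all arrays with 1417771_a_at. So in these 3 genes one probe set stood high on the 3 arrays and the other did not. Of the 19 pairs of tested probe sets of the same proteasome gene, 15 had their most discordant array among these 3. Pairs of other genes were not counted, so this is not shown to be particular to the proteasome genes. In most of those 15 pairs the most discordant array was NTg triceps replicate 2. In 5 pairs the 3 most discordant arrays were exactly these. In Affymetrix names, _x_at and _s_at mark probe sets that may also bind other transcripts. What sets the arrays apart was not tested.

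**Figure D1:**
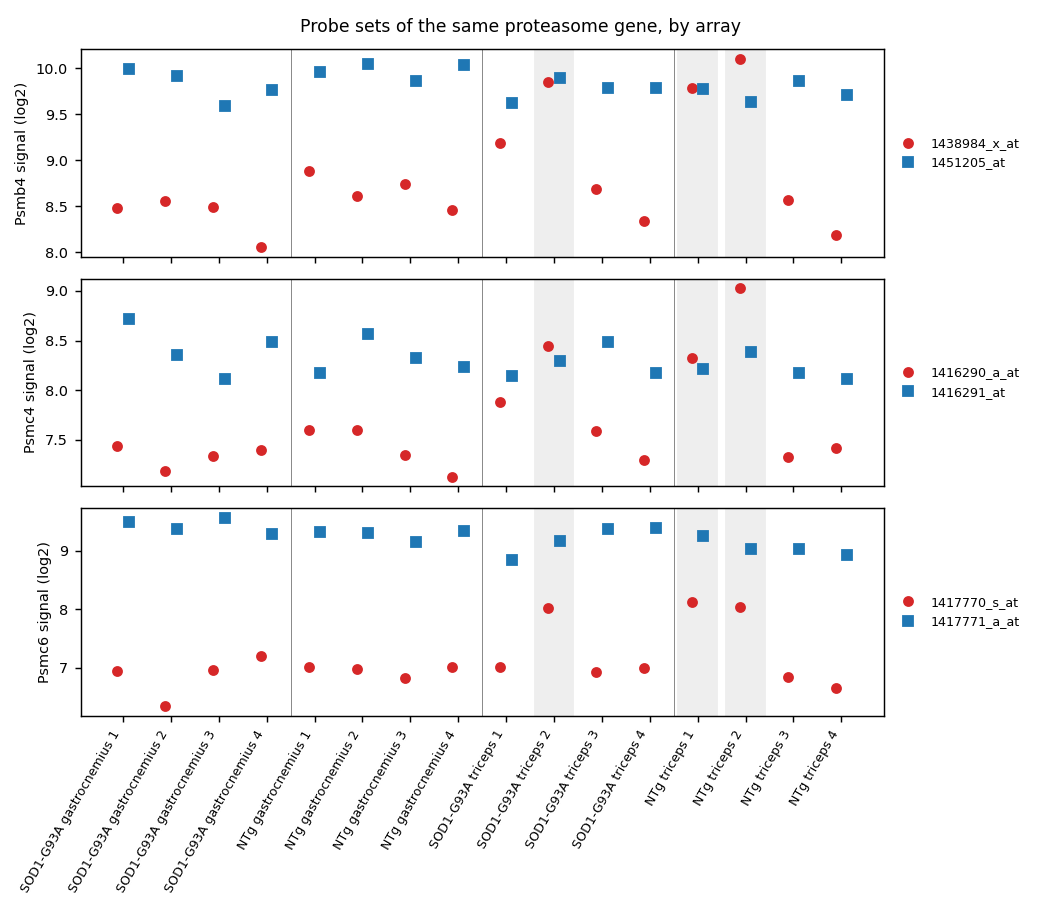
Log2 signal (y axis) of both probe sets of Psmb4, Psmc4 and Psmc6 in each of the 16 arrays (x axis, by group), with the 3 triceps arrays of low Ckm shaded. One probe set of each gene (circles) is higher on the shaded arrays than on all other arrays, and the other (squares) is not.

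In gastrocnemius, no proteasome gene differed between SOD1-G93A and NTg mice by the test. The mean deviation of the 51 probe sets from their averages over all arrays was 0.02 ± 0.06 in SOD1-G93A mice and 0.00 ± 0.05 in NTg mice (log2, SD, n = 4 each). Differences, SOD1-G93A minus NTg, were above 0 for 31 of 51 probe sets with a median of 0.03, against 47.1% above 0 and a median of -0.01 over all 4637 tested. Over all tested probe sets 0% were called, and 2.22% had an unadjusted p under 0.05 (103), as did 0 of the 51. The 95% interval lay within a 1.5-fold change either way for 41 of the 51 and within 2-fold for 50.

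By role, the core had 10 of 18 tested probe sets above 0 in gastrocnemius with a median of 0.02, and the cap had 19 of 25 with a median of 0.07. Within the cap, the ATPases had 7 of 9 above 0 (median 0.08) and the other subunits 12 of 16 (median 0.04). The activators had 1 of 4 above 0 (median -0.12) and the core chaperones 1 of 3 (median -0.17). In all comparisons the tested activators stand for only 2 genes, Psme1 and Psme4, and the core chaperones for 2. Here the 3 activator probe sets below 0 were all of Psme4. None of the classes by role carried a called member in either direction.

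Psmc1 and Psmc2, both in the ATPase ring that unfolds substrates, were the only 2 of 51 whose gastrocnemius arrays did not overlap between genotypes, against 2.7% of all tested probe sets. Psmc1 was at 8.11, 8.22, 8.22 and 8.23 in SOD1-G93A gastrocnemius, against 7.91, 8.04, 7.97 and 8.04 in NTg gastrocnemius. Psmc2 was at 9.74, 9.96, 9.71 and 9.66 with 1426611_at in SOD1-G93A gastrocnemius, against 9.60, 9.60, 9.58 and 9.48 in NTg gastrocnemius. In both genes every SOD1-G93A array was above every NTg array. The log2 difference was 0.21 ± 0.14 (SE) for Psmc1 and 0.20 ± 0.12 for Psmc2, and neither passed (limma adjusted p = 0.999). These SE use the spread within groups over all 16 arrays, triceps included. The SD of Psmc1 was 0.06 in each gastrocnemius group, against 0.23 in SOD1-G93A and 0.19 in NTg triceps. For Psmc2 these SD were 0.13 and 0.06 in SOD1-G93A and NTg gastrocnemius, against 0.14 and 0.21 in triceps. Without the 3 triceps arrays of low Ckm the SE was 0.12 for both, and neither passed. The second Psmc2 probe set, 1435859_x_at, had a difference of 0.07. Psma5, an alpha ring subunit, had 8.77, 9.28, 9.26 and 9.04 with 1434356_a_at in SOD1-G93A gastrocnemius, against 8.80, 8.91, 8.80 and 8.96 in NTg gastrocnemius. Its difference of 0.22 rested on overlapping groups, and its other probe set had 0.01.

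On the other side, Psmg2, a chaperone that starts the alpha ring, was at 6.76, 6.64, 6.32 and 6.51 with 1425373_a_at in SOD1-G93A gastrocnemius, against 6.84, 7.18, 6.36 and 7.17 in NTg gastrocnemius. The groups overlapped, and the difference was -0.33 ± 0.29 (SE). Psmb4, with the probe set 1451205_at, had 9.99, 9.92, 9.59 and 9.77 in SOD1-G93A gastrocnemius, against 9.97, 10.05, 9.86 and 10.03 in NTg gastrocnemius. Again the groups overlapped, with a difference of -0.16 ± 0.11 (SE). Adjusted p was 0.999 for both (limma).

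The tested activators are given for both muscles. Psme3, which encodes the PA28 gamma activator of the nucleus, was below the limit and not tested, at 4.45 to 6.84 with 1418078_at and 5.49 to 7.24 with 1418079_at over the 16 arrays. Psme4 encodes PA200, an activator of the nucleus that is known for the breakdown of acetylated histones. With 1452211_at it was at 9.42, 9.42, 9.39 and 9.63 in SOD1-G93A gastrocnemius, against 9.49, 9.48, 9.73 and 9.79 in NTg gastrocnemius, and at 9.74, 9.63, 9.77 and 9.87 in SOD1-G93A triceps, against 9.91, 9.80, 9.87 and 9.63 in NTg triceps. Genotypes overlapped in both muscles, with differences of -0.16 in gastrocnemius and -0.05 in triceps, where it was 0.04 without the 3 arrays. With 1426823_s_at Psme4 was at 9.35, 9.32, 9.63 and 9.44 in SOD1-G93A gastrocnemius, against 9.43, 9.49, 9.62 and 9.73 in NTg gastrocnemius, and at 9.74, 10.01, 9.73 and 9.49 in SOD1-G93A triceps, against 9.61, 10.10, 9.84 and 9.34 in NTg triceps. These overlapped too, with differences of -0.13 in gastrocnemius and 0.02 in triceps. With 1426824_at it was at 8.67, 8.82, 9.11 and 9.19 in SOD1-G93A gastrocnemius, against 8.86, 8.74, 9.33 and 9.33 in NTg gastrocnemius, an overlapping difference of -0.12. With 1426824_at the genotype difference in triceps was 0.62 ± 0.32 (SE, limma unadjusted p = 0.0711), from 8.83, 8.63, 9.24 and 9.11 in SOD1-G93A triceps and 8.78, 6.98, 9.15 and 8.40 in NTg triceps. A single low array, NTg triceps replicate 2, set that value apart, and without the 3 triceps arrays of low Ckm it was 0.28. Psme1 encodes a subunit of the PA28 activator, which interferon induces and which is known for its part in making antigen peptides. It was at 8.02, 7.96, 8.03 and 7.55 in SOD1-G93A gastrocnemius, against 7.47, 7.73, 8.13 and 7.60 in NTg gastrocnemius. In triceps it had 8.21, 8.05, 8.58 and 8.09 in SOD1-G93A mice and 8.14, 7.63, 8.03 and 7.97 in NTg mice. Psme1 overlapped between genotypes in each muscle, with differences of 0.16 in gastrocnemius and 0.29 ± 0.18 (SE) in triceps.

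In triceps, too, no proteasome gene differed between the genotypes by the test, and 0% of all tested probe sets were called. The mean deviation of the members was -0.02 ± 0.04 in SOD1-G93A triceps and 0.00 ± 0.09 in NTg triceps (SD, n = 4 each). Differences were above 0 for 22 of 51 probe sets with a median of -0.03, against 54.4% and 0.02 over all tested. The core had 7 of 18 above 0 (median -0.03), the cap 9 of 25 (median -0.06), its ATPases 2 of 9 (median -0.09) and the activators 3 of 4 (median 0.16). Without the 3 arrays of low Ckm the signs turned for the cap ATPases, of which 6 of 9 were then above 0 (median 0.10), and for all members together, with 30 of 51 above 0 (median 0.04). The activators then had 4 of 4 above 0 (median 0.17), the core alpha subunits 3 of 9 (median -0.02) and the core beta subunits 5 of 9 (median 0.04). An unadjusted p under 0.05 was found for 1 of the 51 and for 2.54% of all tested probe sets (118). The 95% interval lay within 1.5-fold for 35 of the 51 and within 2-fold for 50. Beside these values, skeletal muscle markers were above 0 for 17 of 18 probe sets in gastrocnemius (median 0.16) and for 18 of 18 in triceps (median 0.23), none called, and matrix markers for 3 of 7 in gastrocnemius and 7 of 7 in triceps. Without the 3 arrays the skeletal muscle markers were above 0 for 3 of 18 in triceps (median -0.07) and the matrix markers for 5 of 7. The part of these in the genotype differences was not tested.

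That 1 member was a probe set of Psmd11, the cap subunit with the most probe sets, whose product holds lid and base of the cap together and is known to set how many complete proteasomes form. With 1440253_at Psmd11 was at 8.80, 8.19, 8.59 and 8.36 in SOD1-G93A triceps, against 8.55, 8.99, 8.98 and 9.48 in NTg triceps. The groups overlapped, since NTg replicate 1 lay below SOD1-G93A replicates 1 and 3. The difference was -0.51 ± 0.18 (SE; limma unadjusted p = 0.0120, adjusted p = 0.994), and -0.64 without the 3 arrays of low Ckm, with an adjusted p of 0.997 there. The other 3 Psmd11 probe sets did not go the same way in triceps. Their differences were 0.06 with 1429370_a_at, 0.04 with 1437080_s_at and 0.19 with 1456059_at, and 0.07, 0.22 and 0.08 without the 3 arrays. In gastrocnemius 1440253_at had 8.69, 8.83, 8.89 and 8.55 in SOD1-G93A mice and 8.67, 8.61, 8.28 and 8.82 in NTg mice, a difference of 0.15. The other 3 had 0.22, 0.01 and -0.07 there, so the 4 probe sets of this gene gave no common direction in either muscle.

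Psma6, an alpha ring subunit, was at 10.22, 10.05, 10.06 and 9.98 with 1437144_x_at in SOD1-G93A triceps, against 10.25, 11.05, 10.12 and 10.23 in NTg triceps. Its difference of -0.33 became -0.09 without the 3 arrays of low Ckm, one of which held the value of 11.05, and its probe set 1416506_at had 0.01. Psmb3, a core beta subunit that does not cut, was at 9.21, 9.16, 9.40 and 9.49 with 1460198_a_at in SOD1-G93A triceps, against 9.07, 10.04, 9.55 and 9.59 in NTg triceps. The SOD1-G93A arrays lay within the range of the NTg arrays, and the difference was -0.25 ± 0.16 (SE), or -0.20 without the 3 arrays. Psmd1, the large scaffold subunit of the cap, was at 9.40, 9.05, 9.67 and 9.52 in SOD1-G93A triceps, against 9.0, 8.52, 9.55 and 9.45 in NTg triceps. In both groups replicate 2 was lowest, and the difference was 0.28, or 0.03 without the 3 arrays. Psmd2, its partner scaffold, was the only one of 51 members whose triceps arrays did not overlap between genotypes, against 0.949% of all tested. It was at 9.27, 9.23, 9.30 and 9.27 in SOD1-G93A triceps, below the 9.33, 9.69, 9.40 and 9.34 of NTg triceps, with a difference of -0.17 ± 0.12 (SE) that did not pass, or -0.09 without the 3 arrays, one of which held the 9.69.

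**Figure D2:**
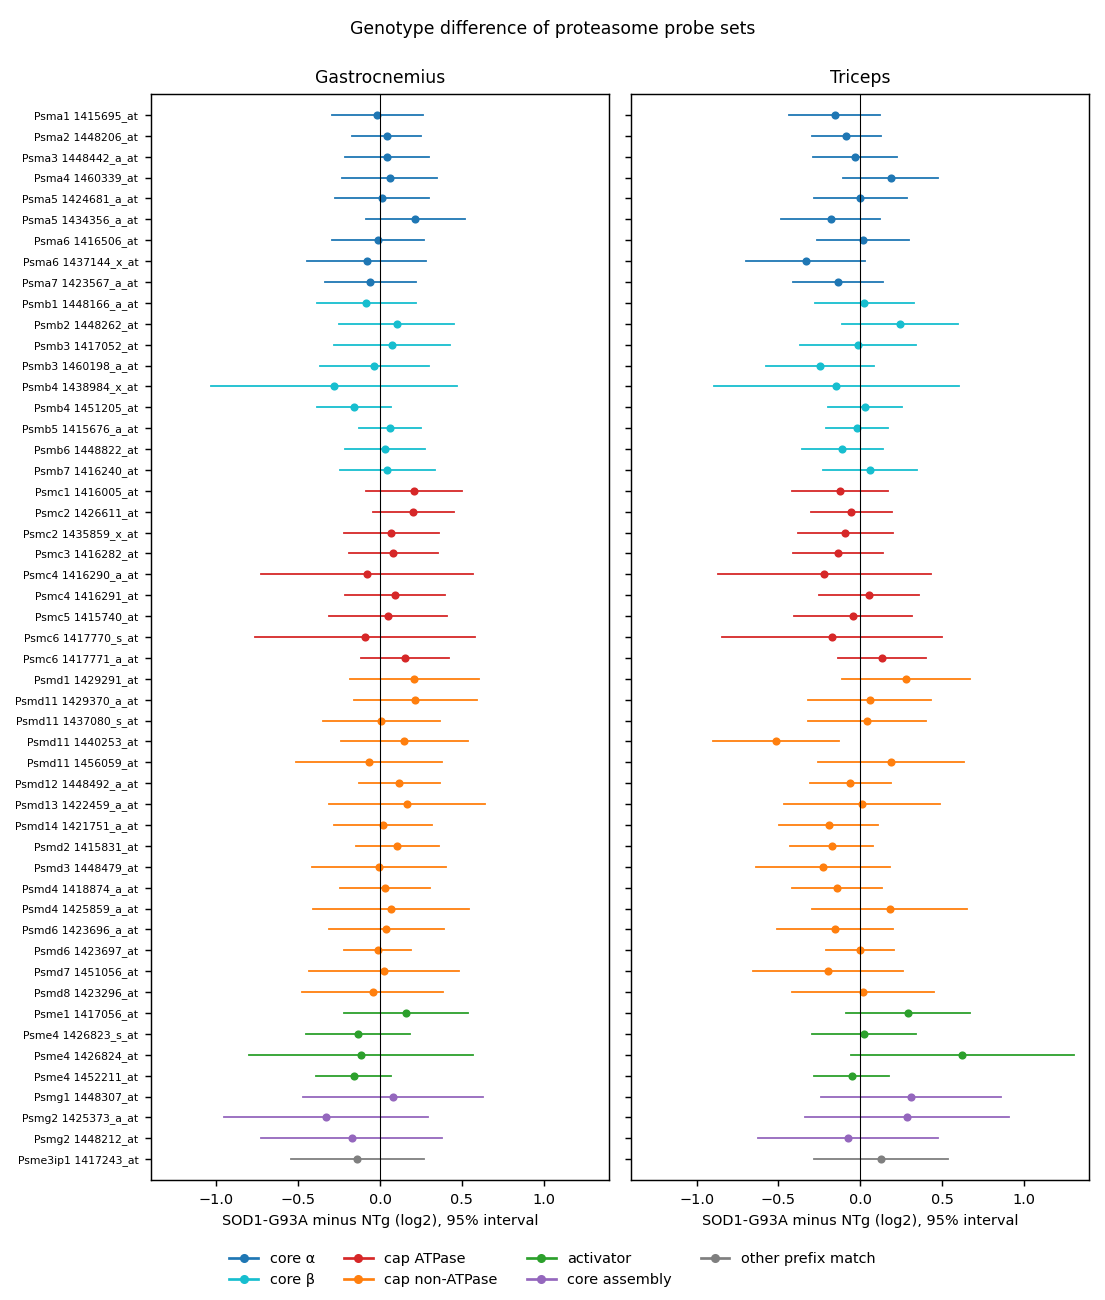
Log2 difference SOD1-G93A minus NTg (x axis) with its 95% interval for each of the 51 tested probe sets (y axis, by role), in gastrocnemius (left) and triceps (right). All but one of the intervals in each panel reach no further than a 2-fold change, none passed the adjusted test, and the interval of Psmd11 1440253_at in triceps is the only one that leaves out 0.

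Averaged over both muscles, with the mouse as a random block, 24 of 51 probe sets were above 0 with a median of -0.01, against 51.3% and 0.00 over all tested. It was 32 of 51 without the 3 arrays, with a median of 0.04. Again 0% were called among all tested, and 1.83% had an unadjusted p under 0.05 (85), as did 0 of the 51. The intervals lay within 1.5-fold for 46 of the 51 and within 2-fold for all 51 tested. Psmd1 had the lowest p among the positive differences. It was at 9.49, 9.55, 9.70 and 9.47 in SOD1-G93A gastrocnemius, against 9.25, 9.23, 9.48 and 9.42 in NTg gastrocnemius, and its averaged difference was 0.24 ± 0.14 (SE, limma adjusted p = 0.997). Psme1 followed with 0.22 and Psmc6 with 0.14 (1417771_a_at). On the negative side stood Psma6 with -0.21 (1437144_x_at), Psmd11 with -0.18 (1440253_at) and Psme4 with -0.11 (1452211_at). None of these 6 passed. Without the 3 arrays Psmd1 had 0.13, Psma6 -0.11 and Psme4 -0.04, all smaller. Psme1 had 0.25, Psmc6 0.18 and Psmd11 -0.25 there, all larger.

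The genotype effect in gastrocnemius minus that in triceps tested whether the muscles responded differently. Of the 51 probe sets 30 were above 0 with a median of 0.08, against 43.8% and -0.04 over all tested. All 9 probe sets of the cap ATPases lay above 0 (median 0.14), as did 10 of 16 for the other cap subunits (median 0.17), while 0 of 4 for the activators did (median -0.14). Without the 3 arrays of low Ckm the ATPases had 4 of 9 above 0 (median -0.02), the other cap subunits 12 of 16 (median 0.15) and the activators 0 of 4 (median -0.20). Of all tested probe sets 0% were called and 1.85% had an unadjusted p under 0.05 (86), against 1 of the 51. That 1 was again Psmd11 1440253_at, with a difference of effects of 0.66 ± 0.26 (SE; limma unadjusted p = 0.0201, adjusted p = 0.999). Psma5 (1434356_a_at) had 0.40 and Psmc1 0.33. Psme4 (1426824_at) had -0.74, Psmg2 (1425373_a_at) -0.62 and Psmb4 (1451205_at) -0.19, and adjusted p was 0.999 for each. Leaving out the 3 arrays gave 0.79 for Psmd11 (limma adjusted p = 0.907), 0.27 for Psma5 and 0.25 for Psmc1. It gave -0.40 for Psme4, -0.11 for Psmb4 and -0.49 for Psmg2. For Psmg2 the triceps values behind this were 6.83, 7.4, 6.81 and 6.70 in SOD1-G93A mice and 7.44, 5.90, 7.07 and 6.18 in NTg mice, a wide and overlapping spread.

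**Figure D3:**
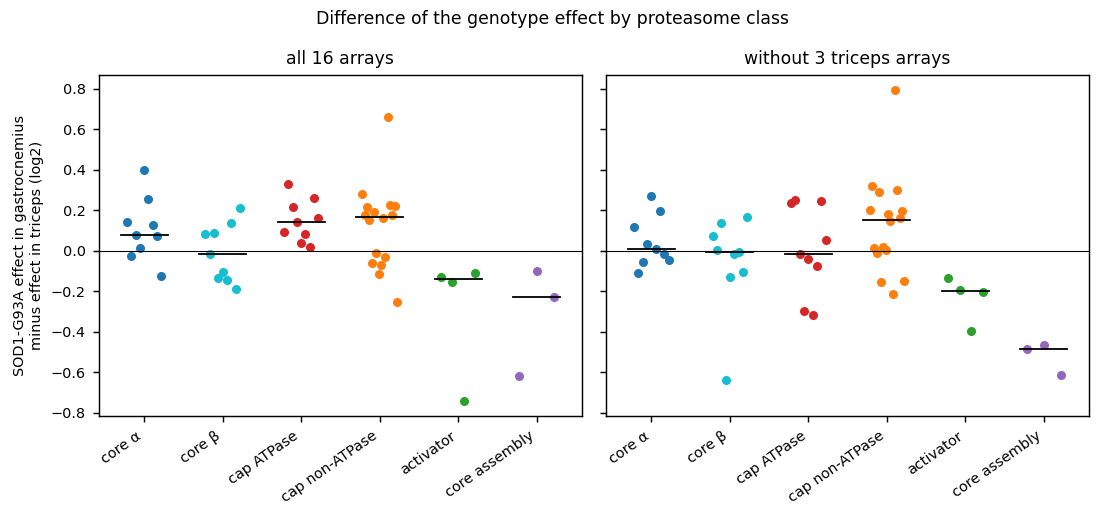
Difference of the genotype effect, gastrocnemius minus triceps (log2, y axis), for each tested probe set by role (x axis), with all 16 arrays (left) and without the 3 triceps arrays of low Ckm (right); the bars are class medians. The 9 cap ATPase points are all above 0 on the left, and 4 of 9 are on the right.

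Between the muscles 1 proteasome probe set was called in the main fit, and it was higher in gastrocnemius. That fit did not pair the muscles of a mouse, and fits that did, given below, called other members. Psmd6 encodes a subunit of the lid, the part of the cap that removes ubiquitin chains. With 1423697_at Psmd6 was at 10.64, 10.46, 10.46 and 10.48 in SOD1-G93A gastrocnemius, against 10.25, 10.11, 10.35 and 10.30 in SOD1-G93A triceps. In NTg mice it was at 10.63, 10.58, 10.47 and 10.43 in gastrocnemius, against 10.14, 10.22, 10.37 and 10.29 in triceps. All 8 gastrocnemius arrays were above all 8 triceps arrays. A lack of overlap in either direction was found for 1 of 51 members and 1.64% of all tested probe sets. Of all tested, 58 had gastrocnemius above triceps and 18 had it below. The difference was 0.26 ± 0.07 (SE), or 1.20-fold, with a limma adjusted p of 0.0435, and it was above 0 in 8 of 8 mice, which the lack of overlap already fixes. In 13 of 16 cases the call was lost when 1 array was left out, with an adjusted p of up to 0.106, although the difference stayed between 0.24 and 0.28. Without the 3 triceps arrays of low Ckm it was 0.20 with an adjusted p of 0.162.

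The other Psmd6 probe set did not go with it. With 1423696_a_at Psmd6 was at 10.14, 9.75, 10.00 and 10.06 in SOD1-G93A gastrocnemius, against 10.17, 10.04, 10.00 and 10.09 in SOD1-G93A triceps. In NTg mice it was at 10.04, 10.10, 9.91 and 9.74 in gastrocnemius, against 10.32, 10.81, 9.96 and 9.83 in triceps. The difference was -0.18 ± 0.12 (SE, limma adjusted p = 0.357), and 7 of 8 mice were below 0. Without the 3 arrays it was -0.02. The 2 probe sets of this gene thus gave opposite signs, and the call holds for a probe set and not for the gene.

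Over all tested probe sets 3.69% were called between the muscles (171), 2.11% higher (98) and 1.57% lower in gastrocnemius (73), so 1 of 51 was no more than the background. An unadjusted p under 0.05 was found for 13 of 51, against 22.3% of all tested (1035). All 8 mice had the same sign for 4 of 51 (7.84%), against 10.3% of all tested.

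Psmb7 and Psmb2 came next among those higher in gastrocnemius. Psmb7, the beta subunit with trypsin-like activity, was at 12.02, 11.99, 11.99 and 11.86 in SOD1-G93A gastrocnemius, against 11.65, 11.30, 11.88 and 11.82 in SOD1-G93A triceps. In NTg mice Psmb7 was at 11.95, 11.88, 11.81 and 12.04 in gastrocnemius, against 11.64, 11.28, 11.73 and 11.75 in triceps. The groups overlapped narrowly, and the lowest 2 values were those of SOD1-G93A and NTg triceps replicates 2, both among the 3 arrays. The difference was 0.31 ± 0.10 (SE, limma adjusted p = 0.0846) with 8 of 8 mice above 0, and 0.18 without the 3 arrays. Psmb2, a beta subunit that does not cut, was at 8.93, 8.65, 8.74 and 8.81 in SOD1-G93A gastrocnemius, against 8.52, 8.14, 8.44 and 8.81 in SOD1-G93A triceps. In NTg mice Psmb2 was at 8.74, 8.69, 8.44 and 8.86 in gastrocnemius, against 8.20, 7.79, 8.47 and 8.47 in triceps. Its groups overlapped, 7 of 8 mice were above 0, and the difference was 0.38 ± 0.12 (SE, adjusted p = 0.0883), or 0.20 without the 3 arrays.

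Among those with lower values in gastrocnemius, Psmg2 had the lowest p. With 1448212_at it was at 6.63, 6.59, 6.21 and 6.58 in SOD1-G93A gastrocnemius, against 7.08, 7.49, 7.30 and 6.79 in SOD1-G93A triceps. In NTg mice Psmg2 was at 6.90, 7.03, 6.15 and 6.63 in gastrocnemius, against 7.54, 7.88, 6.69 and 6.85 in triceps. The groups overlapped, but all 8 mice were below 0, with a difference of -0.62 ± 0.19 (SE, limma adjusted p = 0.0737), but -0.33 without the 3 arrays. Its other probe set, 1425373_a_at, had -0.07, or 0.02 without them. Psme4 had -0.24 with 1452211_at (adjusted p = 0.0997, 7 of 8 mice below 0) and -0.23 with 1426823_s_at, but 0.37 with 1426824_at. Leaving out the 3 arrays gave -0.23, -0.12 and 0.09. Psmc4 had -0.54 with 1416290_a_at, the probe set that stood high on the 3 arrays, -0.10 without them, and 0.12 with its other probe set.

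The mouse was paired across muscles in these data, and the number of calls depended on how that entered the fit. With the mouse as a random block 4 of the 51 tested members were called, Psmb7, Psmd6, Psmg2 and Psmb2. In that fit 331 of all 4637 tested probe sets were called. The shares were similar, so the 4 calls did not stand out from the background. With each mouse as a fixed replicate block 1 was called, Psmg2 in place of Psmd6, and 318 of all tested.

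**Figure D4:**
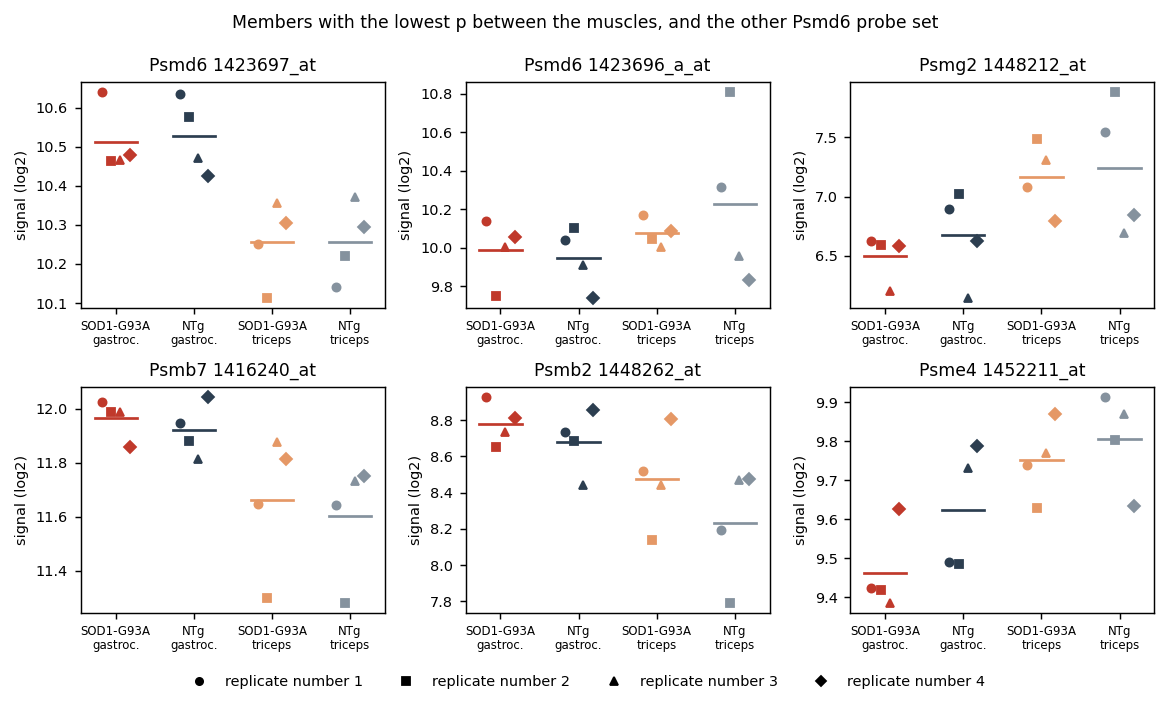
Log2 signal (y axis) of the called Psmd6 probe set, the other Psmd6 probe set and the members of next lowest p in the 4 groups (x axis), with a symbol per replicate number and a bar at the group mean. Psmd6 1423697_at is higher in all gastrocnemius arrays than in all triceps arrays, and Psmd6 1423696_a_at is not.

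By role, the core beta subunits had 8 of 9 probe sets above 0 between the muscles (median 0.14), the exception being Psmb4 1438984_x_at at -0.55. Without the 3 arrays they again had 8 of 9 (median 0.11), with that probe set at -0.02. The subunits with cutting activity, Psmb5 (chymotrypsin-like) and Psmb6 (caspase-like), had 0.08 and 0.16 beside the 0.31 of Psmb7, and 0.04, 0.11 and 0.18 without the 3 arrays. The core alpha subunits had 5 of 9 above 0 (median 0.00), and 8 of 9 without the 3 arrays (median 0.09). Cap subunits other than ATPases had 12 of 16 (median 0.12), cap ATPases 4 of 9 (median -0.03) and activators 1 of 4 (median -0.23). They were 10 of 16 (median 0.09), 6 of 9 (median 0.09) and 1 of 4 (median -0.18) without the 3 arrays, so the median of the cap ATPases turned. Psme1 was among the activators below 0, with -0.28. In all, 30 of 51 were above 0 (median 0.06), against 49.0% and 0.00 over all tested, and 35 of 51 without the 3 arrays (median 0.08). Beside these values, the skeletal muscle markers had 18 of 18 probe sets above 0 between the muscles with a median of 0.50 and 1 called, Myh2. Their mean level per array was 13.59 to 13.98 in SOD1-G93A gastrocnemius and 13.45 to 13.90 in NTg gastrocnemius, against 12.43 to 13.86 in SOD1-G93A triceps and 12.55 to 13.68 in NTg triceps. The matrix markers Col1a2 (1.12) and Col1a1 (1.31) were called too. Without the 3 arrays 10 of 18 muscle marker probe sets were above 0 (median 0.02), Myh2 and Col1a2 were still called at 1.41 and 0.77, and Col1a1 at 0.66 was not (limma adjusted p = 0.0547). The part of muscle and matrix content in the proteasome differences was not tested.

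**Figure D5:**
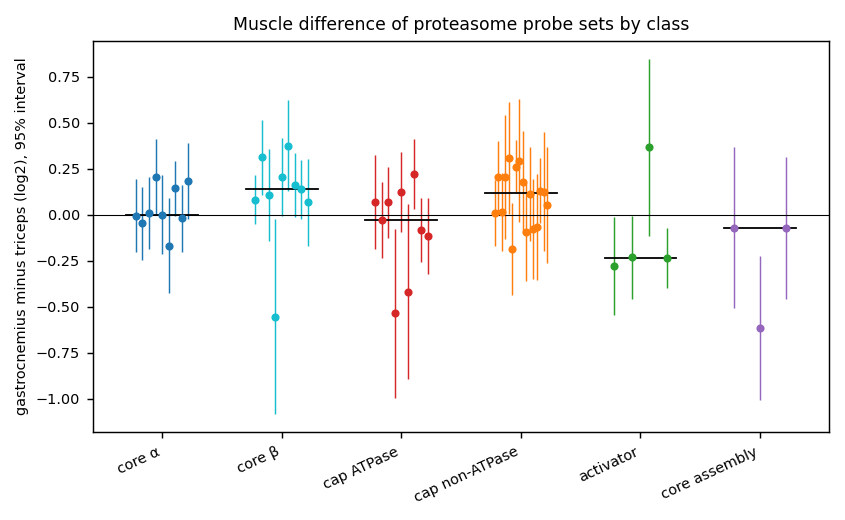
Log2 difference gastrocnemius minus triceps (y axis) with its 95% interval for each tested probe set by role (x axis); bars are class medians. Core beta subunits lie mostly above 0 and 3 of the 4 activator probe sets, of 2 genes, below it. In this fit, which did not pair the muscles of a mouse, only a cap non-ATPase, Psmd6 1423697_at, passed the adjusted test.

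The median SD within a group was 0.22 over the proteasome probe sets, with a range of 0.07 to 0.59, and 0.28 over all tested probe sets. The median level was 8.98 and 7.99 in these sets, so the spread was not compared at equal signal. In the 12 genes with several tested probe sets, the distance between 2 tested probe sets of a gene spanned a range of 0.75 to 2.88 log2 units over the 16 arrays, depending on the pair, with a median of 1.46.

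Genes that work with the proteasome were described from lists chosen with earlier results known. None of the listed pathway genes was called between genotypes in any comparison. Of the ubiquitin supply and activation genes 9 of 17 were in the table with 17 tested probe sets, 7 above 0 in gastrocnemius (median -0.01) and 11 in triceps (median 0.07). Ube2r2, a ubiquitin-conjugating enzyme, had the lowest p in gastrocnemius at 0.60 ± 0.30 (SE). Proteasome partners outside the prefixes had 17 tested probe sets, 9 above 0 in gastrocnemius (median 0.02) and 10 in triceps (median 0.00). Among them Usp14, a deubiquitinase of the cap, had 0.71 ± 0.40 (SE) in gastrocnemius with 1437714_x_at, while its 2 dim, untested probe sets had -0.25 and -0.70. Pomp, which helps to assemble the core, had 0.18 in gastrocnemius, and the shuttle Ubqln4 had -0.43 ± 0.18 in triceps. The p97 segregase list had 7 of 14 above 0 in gastrocnemius and 6 in triceps, and Faf1, a p97 cofactor, had -0.28 in triceps, or -0.11 without the 3 arrays. Genes that control proteasome expression had 1 of 6 above 0 in gastrocnemius (median -0.19) and 3 of 6 in triceps (median 0.00; 5 of 6 and 0.15 without the 3 arrays), with Nfyc, a subunit of the CCAAT-binding factor, at -0.40 ± 0.18 in gastrocnemius. Muscle ubiquitin ligases had 6 of 12 above 0 in gastrocnemius and 10 of 12 in triceps (median 0.10), but 5 of 12 there without the 3 arrays (median -0.03). Nedd4 had 0.42 and 0.54 in triceps with its probe sets of lowest p and 0.75 with 1421955_a_at, and 0.19, 0.33 and -0.55 without the 3 arrays. Antigen presentation and interferon genes had 1 of 9 above 0 in gastrocnemius (median -0.06) and 8 of 9 in triceps (median 0.15), and 5 of 9 there without the 3 arrays (median 0.02). H2-D1 had 0.56 ± 0.22 in triceps with 1451784_x_at, or 0.60 without the 3 arrays, and 0.15 with 1425545_x_at, or -0.39 without them. B2m had 0.83 ± 0.43 with 1452428_a_at and 0.38 with 1449289_a_at, or 0.17 and 0.08 without the 3 arrays. Immune cell markers had 2 of 4 tested probe sets above 0 in gastrocnemius and 4 of 4 in triceps, or 1 of 4 without the 3 arrays, none called. Endothelial markers had 1 of 3 and 2 of 3 above 0 in these muscles, and adipocyte markers 3 of 3 in each, with 1 of 3 and 3 of 3 in triceps without the 3 arrays. The part of these cell types in the values was not tested.

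Between the muscles, 1 of the 14 tested probe sets of the p97 list was called in the fit without the mouse, against 3.69% of all tested probe sets (171). None was called of the 17 of ubiquitin supply, 17 of proteasome partners, 6 of control genes, 12 of muscle ligases and 9 of antigen presentation. Ubxn2a, a p97 cofactor, had -0.33 ± 0.09 with 1425020_at (SE, limma adjusted p = 0.0401) and -0.70 with 1425019_at, which did not pass. The called probe set had -0.21 without the 3 arrays (adjusted p = 0.185), so the call was lost. Nfe2l1, which encodes NRF1, had 0.32 ± 0.12 (adjusted p = 0.132), or 0.18 without the 3 arrays. Its list of control genes had 2 of 6 above 0 (median -0.06).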

How the data were processed

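Total RNA was extracted with Trizol and labelled from 4 ug, per the labels' protocols, and hybridised to Affymetrix mouse arrays. The deposited table gives the authors' log2 signals, made with MAS5 per the submitters' processing notes. The log base is not stated and was inferred from values between -0.77 and 14.81. How the arrays were scaled, and how the 7729 probe sets were chosen, is not stated in the sources used here. The values were used as deposited.

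Group means were fitted with limma 3.58.1 under R 4.3.3 (lmFit, eBayes with an intensity trend) for the 4637 probe sets with a mean above the 40th percentile. 5 comparisons were made, with the spread within groups estimated together over all 4 groups. Only the average over both muscles had the mouse as a random block (consensus correlation 0.18). The design text gives 4 mice of each genotype for both muscles. Deviations of same-numbered arrays correlated at 0.14 to 0.39, each best with its own number in 8 of 8 cases, so numbers were taken to mark the mouse. The labels call the arrays biological replicates. The number of arrays and the spread within groups both limit the precision.

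Members, lists and tests were chosen with earlier results of these data known. All 56 member probe sets matched RefSeq by Entrez identifier. Values per array are given for the called members or, where fewer than 3 were called, those of the 3 lowest p per direction, for Psmd11 (most probe sets) and for the activators, and of the lists the called genes and 2 of lowest p. Psmd2, Psmc4, Psmc6, Psmb4 1438984_x_at, Psmb5 and Psmb6 were named after their values were seen. The text gives part of these. The planned exact sign test over mice is not quoted, since Psmd6 was chosen by the same difference. Fits were tested on simulated data. Alternatives were other filters, normalization, moderation, blocks, arrays left out and a single value per gene.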

Additional observations from a re-analysis of the deposited data

Results flagged for a closer look

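In each group of 4 arrays, the highest or lowest value was set against the other 3 for 22 probe sets. These were the called members, those of the 3 lowest p per direction in each comparison, and all tested ones of Psmd11, Psme1 and Psme4. Of 88 sets of 4 values 11 had an array far from the rest by Dixon's criterion, which chance alone exceeds in about 1 in 20. Psmc1 was at 8.11 in SOD1-G93A gastrocnemius replicate 1, against 8.22 to 8.23 in the other 3. Psme1 was at 7.55 in SOD1-G93A gastrocnemius replicate 4, against 7.96 to 8.03. Psmd6 (1423697_at) was at 10.64 in SOD1-G93A gastrocnemius replicate 1, against 10.46 to 10.48. Psmg2 (1448212_at) was at 6.21 in SOD1-G93A gastrocnemius replicate 3, against 6.58 to 6.63. Psme4 (1452211_at) was at 9.63 in SOD1-G93A gastrocnemius replicate 4, against 9.39 to 9.42. Psmd11 had 3 such values. They were 8.0 with 1456059_at in SOD1-G93A gastrocnemius replicate 1, against 7.89 to 7.90, then 7.78 with 1429370_a_at in SOD1-G93A triceps replicate 3, against 7.95 to 7.97, and 9.47 with 1437080_s_at in SOD1-G93A triceps replicate 2, against 10.23 to 10.29. Psma6 (1437144_x_at) was at 9.80 in NTg gastrocnemius replicate 3, against 10.21 to 10.24, and at 11.05 in NTg triceps replicate 2, against 10.12 to 10.25. Psma5 (1434356_a_at) was at 9.50 in NTg triceps replicate 2, against 8.90 to 8.95. In 3 of the 11 cases the array was one of the 3 triceps arrays of low Ckm.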

How the results depend on the processing

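In the 4 genotype comparisons 0 members and 0 of all tested probe sets were called under every alternative run. Between the muscles 1 member was called in the main fit, which leaves the mouse out. The count was 0 with no filter on dim probe sets, with quantile normalization, without an intensity trend and without the 3 triceps arrays of low Ckm. It was 4 with the replicate set, the replicate number or the mouse as a random replicate block, and 0 to 2 when 1 array was left out. Psmd6 1423697_at kept its sign in all of these, at 0.18 to 0.28. Of all tested probe sets 171 were called, 103 without the 3 arrays, 436, 408, 318 and 331 with the replicate set, the replicate number, the mouse fixed and the mouse random as a block, and 99 to 272 when 1 array was left out. The median over members in triceps was -0.03, and 0.0392 without the 3 arrays. For the difference of the genotype effects it was 0.08, -0.00748 without the 3 arrays, and 0.0119 to 0.0870 when 1 array was left out. The cause of these shifts was not tested. The random block and the replicate number as a block were added after the data were seen, and the blocks changed no other call of a named member than those given. With 4 arrays a group, differences under about 1.5-fold could not be resolved for all members.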
